A study of Homo sapiens with 4 samples.

Results

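Cytochrome P450 enzymes were represented in this pooled CRISPR knockout screen by 54 genes whose symbol began with CYP and a digit, which is 3.05% of the 1773 genes carried with 4 sgRNAs each. The 216 CYP sgRNAs were divided by CYP family into families 1 to 3 (23 genes), family 4 (12 genes) and families 7 and above (19 genes). The cells were HCT116, a human colorectal carcinoma line, transduced at low multiplicity with a CRISPR-Cas9 library against metabolic enzyme genes and selected with puromycin. Per the labels, the selected cells were divided into groups and kept for 7 days with PBS (1 library, the control) or with oxaliplatin at 10 µM (3 libraries, numbered as oxaliplatin replicates 1 to 3). Oxaliplatin is a chemotherapy drug whose platinum forms crosslinks in DNA. No source used here says that the 3 oxaliplatin libraries were separate cultures beyond that division, so p-values measure only the spread among these samples, which may be technical.

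Cytochromes P450 are heme enzymes that insert an oxygen atom into their substrate with electrons from NADPH, delivered by POR in the endoplasmic reticulum or by ferredoxin and FDXR in mitochondria. Many members of families 1 to 3 oxidize drugs and other foreign compounds, mainly in liver and gut. Family 4 hydroxylates fatty acids and eicosanoids, and most members of the higher families make or clear sterols, bile acids, steroid hormones, vitamin D and retinoic acid. Counts in this screen are of sgRNAs in genomic DNA, so they follow the number of cells that carry an sgRNA and say nothing of how much of a P450 the cells make. The sequences of the library's sgRNAs were not used here. The sgRNA below was the designed one with which the study knocked out CYP3A5 by itself, and it is shown because CYP3A5 is the P450 that was followed up. Its place in the genome was not determined here, and the sources used do not say whether it equals one of the 4 CYP3A5 sgRNAs of the library.

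CYP3A5 sgRNA used alone, 5′ to 3′, without PAM: tcttagtgctctccacaaag

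Of its 20 bases, 9 were G or C.

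The libraries held 8934799 counts for PBS and 27563013, 10494731 and 11146921 for oxaliplatin replicates 1, 2 and 3. Across the 216 CYP sgRNAs, depth-scaled log2 counts of oxaliplatin replicates 2 and 3 correlated with Pearson r = 0.946, while replicate 1 correlated with them at 0.649 and 0.678. The PBS library correlated with the 3 oxaliplatin libraries at 0.285, 0.383 and 0.454. These are correlations across sgRNAs, which are not independent replicates, and they are given as a description. Replicate 1 therefore stood apart from the other two, and several results that rest on it are given by library or without it. All 3 comparisons share the 1 PBS library and are not independent of each other.

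CYP sgRNAs were either well represented in the PBS library or nearly missing from it. In PBS, 151 of the 216 CYP sgRNAs (69.9%) had at least 100 counts and 64 (29.6%) had fewer than 10, with 1 between, an sgRNA of the fetal liver form CYP3A7 at 15 counts. Over all genes the corresponding shares were 67.9% and 30.1%. In PBS, 39 CYP sgRNAs (18.1%) were at 0, against 19.1% over all genes. A count of 0 in PBS allows a share of up to 3.36e-05% of that library (3 counts), and this bound, like every interval here, covers counting error only. In oxaliplatin replicates 1, 2 and 3, by contrast, 3, 0 and 0 CYP sgRNAs were at 0. Of the 54 CYP sgRNAs with under 3 counts in PBS, the median count in the 3 oxaliplatin libraries was 131.5, 368 and 305.5. Only 1 of the 54, an sgRNA of the paclitaxel-oxidizing CYP2C8, stayed under 10 in all 3, at 0, 6, 1 and 8 counts in PBS and replicates 1 to 3. By class, sgRNAs at 0 in PBS numbered 19 of 92 in families 1 to 3 (20.7%), 7 of 48 in family 4 (14.6%) and 13 of 76 in families 7 and above (17.1%).

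**Figure D1:**
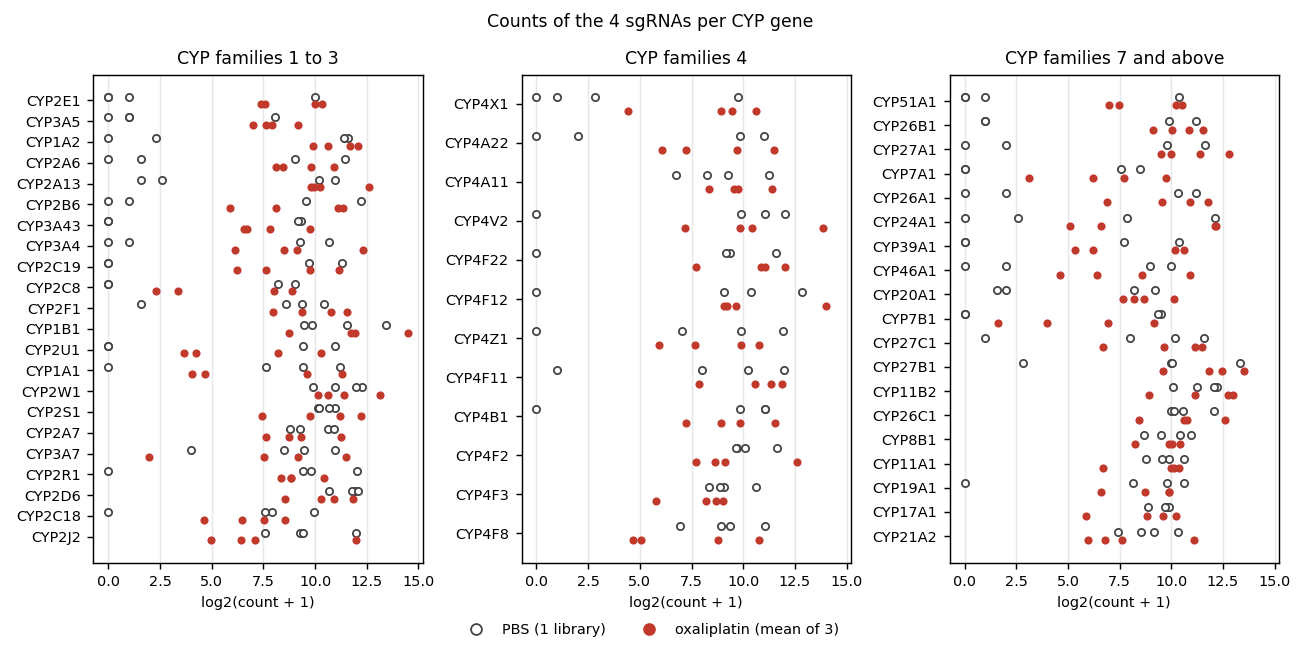
Counts of the 4 sgRNAs of the CYP genes shown on a log2(count + 1) axis, unscaled for depth, with 1 panel per family class and genes ordered by fold change. Open circles are the PBS library, in which many sgRNAs sit at 0, and red circles are the mean of the 3 oxaliplatin libraries on the log2 scale.

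All CYP sgRNAs together took 2.64% of the counts in PBS (95% exact binomial interval 2.63% to 2.65%). In oxaliplatin replicates 1, 2 and 3 they took 2.76%, 2.88% and 2.82%. The largest CYP count of all was an sgRNA of CYP2A13, which activates tobacco nitrosamines in the airway, with 5 counts in PBS and 116194 in oxaliplatin replicate 1. It had 1389 and 1540 counts in replicates 2 and 3, so that its CPM (counts scaled to the library total) was 4216 in replicate 1 against 132 and 138 in the others. Without it, a choice made after seeing the data, the CYP share was 2.64% in PBS and 2.35%, 2.87% and 2.81% with oxaliplatin, so this sgRNA decided on which side of PBS replicate 1 lay. Outside that sgRNA, the most abundant was one of CYP1B1, an oxidizer of aryl hydrocarbons and estrogens, at 11034 counts in PBS and 50945, 17244 and 13388 with oxaliplatin.

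Higher abundance with oxaliplatin was called by edgeR's quasi-likelihood test (adjusted p under 0.05 over all sgRNAs) for 18 of the 215 CYP sgRNAs tested (8.37%), and the share over all 7106 sgRNAs tested was 8.37%. Lower abundance was called by edgeR for 0 CYP sgRNAs, against 0% over all sgRNAs. At an unadjusted p under 0.05 edgeR gave 56 CYP sgRNAs higher (26.0%, against 25.8% of all sgRNAs) and 4 lower (1.86%, against 1.45%). DESeq2 called 59 higher (27.3%, against 28.4%) and 2 lower (0.926%, against 0.406%). The share of CYP sgRNAs called higher was thus close to that of the whole library. By class, edgeR called 9 of 91 sgRNAs of families 1 to 3, 4 of 48 of family 4 and 5 of 76 of families 7 and above. The fit assumes that the single PBS library varies as the oxaliplatin libraries do, and with 1 against 3 libraries an exact permutation test could give no p under 0.25.

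All 18 called CYP sgRNAs were scarce in PBS, with at most 6 counts, and 8 of them were at 0. They belonged to 14 genes, and their adjusted p in edgeR ran from 0.0416 to 0.0495. Among CYP sgRNAs with under 10 counts in PBS, 28.6% of those tested were called, against 27.9% over all genes. With at least 3 counts in PBS required, edgeR called 0 CYP sgRNAs higher and 0 lower, and 0% of all sgRNAs either way. At an unadjusted p under 0.05 that fit gave 10 CYP sgRNAs higher (6.17%, against 5.64%) and 3 lower (1.85%, against 0.882%). With library totals in place of TMM (a trimmed mean of ratios) for the scaling, edgeR again called 0 higher and 0 lower, in CYP genes and over the library, with 48 CYP sgRNAs higher (22.3%, against 20.6%) and 1 lower (0.465%, against 0.661%) at an unadjusted p under 0.05.

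Both called sgRNAs of CYP1A2, which oxidizes caffeine and arylamines in liver, were high in all 3 oxaliplatin libraries. One had 0 counts in PBS and 1401, 768 and 826 with oxaliplatin, at least 282-fold, 205-fold and 194-fold higher after scaling, and the other had 4 in PBS and 1377, 1948 and 1504. The 2 further CYP1A2 sgRNAs, at 3100 and 2727 counts in PBS, had 1537, 7779 and 7008 and 2766, 3884 and 3250 with oxaliplatin, and neither was called. Both called sgRNAs of CYP2A6, the main nicotine oxidase, rose from 2 and 0 counts to 3781, 1424 and 1313 and to 1447, 534 and 883. The other CYP2A6 sgRNAs went from 2762 counts to 155, 276 and 936 and from 525 to 529, 155 and 265. Called and uncalled sgRNAs of CYP2A6 lay on opposite sides of PBS in all 3 libraries after scaling.

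CYP4X1, an orphan member of family 4, had 1 called sgRNA at 0 counts in PBS and 358, 1361 and 674 with oxaliplatin, at least 72.1-fold higher in replicate 1. The other called CYP4X1 sgRNA had 6 counts in PBS and 1661, 1136 and 2032 with oxaliplatin, a log2 fold change of 8.13 with SE 1.54 (edgeR adjusted p = 0.0416). CYP26B1, which clears retinoic acid, had 2 called sgRNAs, both at 1 count in PBS and at 1340, 825 and 1055 and 294, 710 and 834 with oxaliplatin. Its paralog CYP26A1 had 1, at 3 counts in PBS and 7019, 2943 and 2102 with oxaliplatin. These sgRNAs were picked by their call against 1 PBS library, so the gap between their PBS and oxaliplatin counts follows from that choice.

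Other genes had 1 called sgRNA apiece. Those at 0 in PBS included sgRNAs of CYP2C18, whose substrates are little known, CYP2E1, which oxidizes ethanol, CYP2U1, a fatty acid hydroxylase, and CYP4F12, which acts on arachidonic acid. Their lowest oxaliplatin counts were 124, 920, 619 and 566. Those above 0 in PBS belonged to CYP2F1, a lung enzyme (2 counts in PBS, 706 to 3258 with oxaliplatin), and CYP4A22, a near copy of the fatty acid hydroxylase CYP4A11 (3, then 413 to 1729). CYP27A1, a sterol side-chain hydroxylase of bile acid synthesis, had one at 3 counts in PBS and 4980 to 12249 with oxaliplatin, and CYP46A1, the cholesterol hydroxylase of brain, one at 3 and then 1418 to 2595.

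Summed over the 4 sgRNAs of a gene, no CYP gene was called. By edgeR on the summed counts 0 of 54 CYP genes were higher and 0 lower at adjusted p under 0.05, against 0% of all 1823 entries in each direction. No CYP gene reached an unadjusted p under 0.05 in edgeR, where 4.66% of all entries were higher and 1.81% lower, and the lowest adjusted p of a CYP gene was 0.709. DESeq2 called 4 CYP genes higher (7.41%, against 6.75% of all entries) and 0 lower (against 2.03%). Below, the fold change of a gene is therefore a description. It is the median over its sgRNAs of log2((oxaliplatin + 1)/(PBS + 1)) after median-ratio scaling, given as the mean over the 3 oxaliplatin libraries ± SD.

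The median fold change over the 54 CYP genes was 0.24 on the log2 scale, beside 0.20 over all 1773 genes. With counts under 3 set to 3, which puts sgRNAs missing from PBS at their bound, these medians were 0.083 and 0.10. Another scaling moved the CYP median and that of all genes together, to 0.052 and -0.0027 with library totals and to 0.84 and 0.79 with TMM. Of the CYP genes, 22 of 54 (40.7%) lay above 0 in all 3 libraries, against 40.4% of all genes, and 17 (31.5%) lay below 0 in all 3, against 31.2%. Within a gene the sgRNAs differed widely, with a median SD over the sgRNAs of a CYP gene of 4.27 on the log2 scale, beside 4.05 over all genes.

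**Figure D2:**
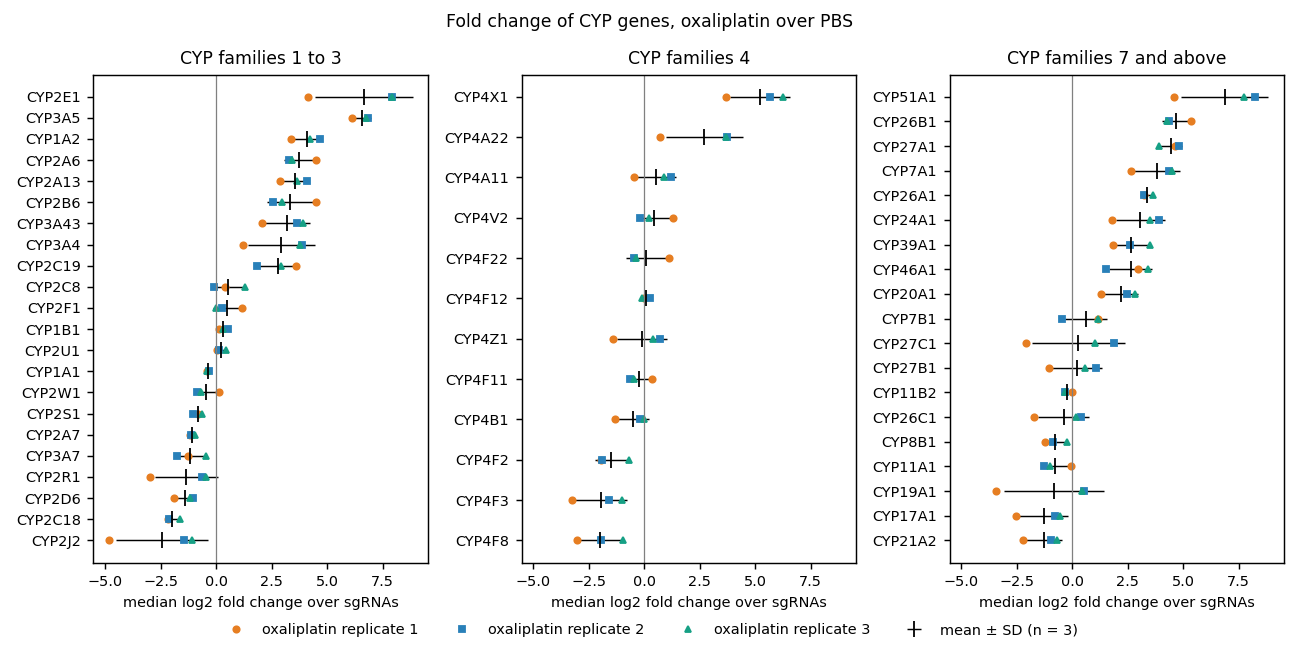
Log2 fold change of the CYP genes shown (median over their sgRNAs, oxaliplatin over PBS) in the 3 oxaliplatin libraries, with the mean ± SD (n = 3) in black, by family class. CYP2E1 and CYP51A1 reach means of 6.67 and 6.86, CYP2J2 lies lowest at -2.46, and orange circles for replicate 1 often lie away from the other two.

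The order of CYP genes followed how many of their sgRNAs were scarce in PBS. The 18 CYP genes with no sgRNA under 3 counts in PBS had a median fold change of -0.95, the 21 with 1 had 0.27, the 12 with 2 had 3.07 and the 3 with 3 had 6.67. Over all genes the medians were -0.78, -0.11, 2.87 and 5.86. No CYP gene had all 4 sgRNAs under 3 counts, as 16 of the 1773 genes did. The PBS count enters both axes of this relation, so it is a description of how the fold changes are built and was not tested.

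**Figure D3:**
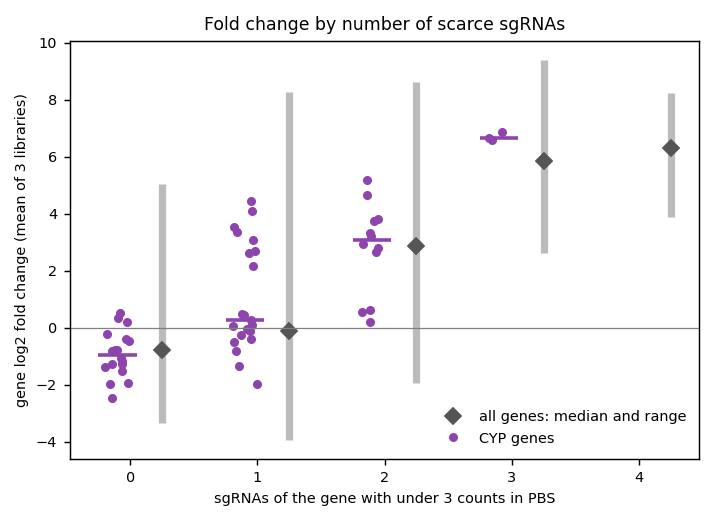
Log2 fold change of each CYP gene (purple, mean of 3 libraries) by the number of its sgRNAs with under 3 counts in PBS, with purple lines at the CYP medians. Grey diamonds and bars give the median and range of all genes, and both rise with the number of scarce sgRNAs, the CYP medians from -0.95 to 6.67.

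Among families 1 to 3, with many enzymes of foreign compounds, the median fold change was 0.33 (0.40, 0.12 and 0.32 in the 3 libraries). Its difference from the median of all genes was 0.13 (0.13 with library totals and with TMM), but -0.11 with a pseudocount of 10 and -0.15 with counts under 3 set to 3, so the sign depends on how low counts are treated. Of the 23 genes, 11 lay above 0 in all 3 libraries and 8 below. The highest were CYP2E1, CYP3A5 and CYP1A2, and the lowest CYP2D6, CYP2C18 and CYP2J2.

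CYP2E1 had a fold change of 6.67 ± 2.20 (SD, n = 3), from 4.12 in replicate 1 to 7.93 and 7.94 in replicates 2 and 3. Its sgRNAs went from 1 count in PBS to 82, 253 and 334, from 0 to 12, 615 and 558, and from 0 to 920, 967 and 1178, while the 1 that was well counted had 1018 in PBS and 3699, 723 and 791 with oxaliplatin. That last sgRNA had a fold change of -0.18 ± 1.14, so the value of the gene came from the scarce ones. CYP1A2 had 4.09 ± 0.66, which became -0.14 when restricted to well-counted sgRNAs (at least 100 counts in PBS). CYP2A6 was at 3.73 ± 0.66, and at -2.47 under that restriction.

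CYP2J2, which makes epoxides of arachidonic acid, was the lowest CYP gene at -2.46 ± 2.07, with -4.84 in replicate 1 and -1.45 and -1.08 in the others. Without replicate 1 its mean was -1.27, above that of CYP2C18 at -1.89, so this rank rested on replicate 1. All 4 sgRNAs of CYP2J2 were well counted. Its sgRNAs went from 613 counts in PBS to 1, 75 and 191, from 684 to 15, 348 and 459, from 187 to 25, 191 and 124, and from 3994 to 12217, 1631 and 3329. CYP2C18 was at -1.98 ± 0.30, with 3 sgRNAs below PBS in all 3 libraries, although its 1 scarce sgRNA was among those called higher. CYP2D6, which oxidizes codeine and many basic drugs, was at -1.39 ± 0.45, with all 4 sgRNAs below PBS in all 3 libraries after scaling. One CYP2D6 sgRNA had 1610 counts in PBS and 68, 1175 and 671 with oxaliplatin.

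The other enzymes of these families that were given in full had smaller fold changes. CYP2W1, known from fetal gut and colorectal tumours, had 4 well-counted sgRNAs and a fold change of -0.47 ± 0.52, with 1 library above 0. CYP1B1 was at 0.33 ± 0.20, the only CYP gene with 4 well-counted sgRNAs that lay above 0 in all 3 libraries. CYP2A7, the paralog of CYP2A6 without known activity, was at -1.08 ± 0.12, and CYP2S1 at -0.82 ± 0.20. CYP2F1 was at 0.49 ± 0.62 and CYP2U1 at 0.21 ± 0.22.

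CYP3A5, a drug oxidase that overlaps the liver enzyme CYP3A4 in its substrates, had the steadiest high value among the CYP genes with 3 scarce sgRNAs. Its fold change was 6.13, 6.83 and 6.76 in the 3 libraries (6.57 ± 0.39), which ranked 64 of 1773 genes from the top. One of its sgRNAs had 263 counts in PBS and 24, 266 and 308 with oxaliplatin. The others went from 0 counts to 277, 229 and 214, from 1 to 137, 1374 and 965, and from 1 to 296, 147 and 168. The sgRNA at 0 in PBS was at least 55.8-fold, 61.2-fold and 50.4-fold higher, with an edgeR adjusted p of 0.0511, and no CYP3A5 sgRNA was called. The value of the gene fell to 5.46 with counts under 3 set to 3, to 2.06 with a pseudocount of 50 and to -1.56 with only the well-counted sgRNA. That sgRNA was at -4.11 in replicate 1, and at -0.30 and -0.27 in replicates 2 and 3. On summed counts CYP3A5 had 265 in PBS and 734, 2016 and 1655 with oxaliplatin (log2 fold change 2.20, SE 1.13, edgeR adjusted p = 0.721).

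The other CYP3A genes differed from CYP3A5 in how their sgRNAs were counted in PBS. CYP3A4 had 2.94 ± 1.51, with sgRNAs from 1 to 3528, 185 and 255, from 0 to 2, 353 and 305, from 612 to 125, 636 and 605 and from 1642 to 5542, 5454 and 4354. CYP3A43, a minor form, had 3.20 ± 1.01 with 2 sgRNAs at 0 in PBS. CYP3A7 had none under 3 counts and a fold change of -1.16 ± 0.65.

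**Figure D4:**
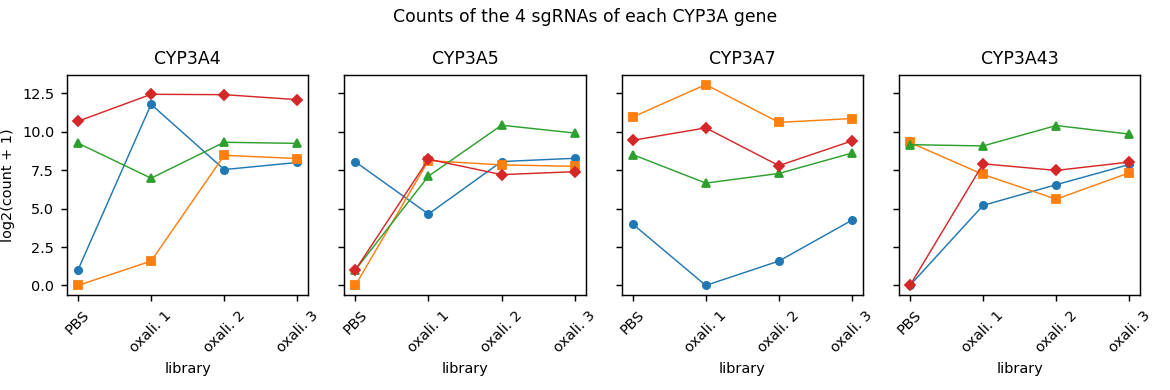
Counts of the 4 sgRNAs of CYP3A4, CYP3A5, CYP3A7 and CYP3A43 in the PBS library and oxaliplatin replicates 1 to 3, on a log2(count + 1) axis unscaled for depth, with 1 line per sgRNA. In CYP3A5, 3 of the sgRNAs start at 0 or 1 count in PBS and 1 at 263, while in CYP3A7 none is under 3 there.

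Family 4, the fatty acid hydroxylases, had a median fold change of -0.018 (-0.23, -0.20 and -0.049 in the 3 libraries). Its difference from the median of all genes was -0.22 (-0.23 with library totals and -0.20 with TMM), and it turned to 0.0086 with a pseudocount of 50 and 0.027 with the mean over sgRNAs. Of its 12 genes 2 lay above 0 in all 3 libraries and 4 below. CYP4X1 and CYP4A22 were those above, and the lowest were CYP4F2, CYP4F3 and CYP4F8, with no sgRNA under 3 counts in PBS. The other CYP4F genes, CYP4F11, CYP4F12 and CYP4F22, had 1 such sgRNA each and were at -0.25, 0.063 and 0.092.

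CYP4X1 was at 5.20 ± 1.34 (3.69, 5.67 and 6.25), and its 1 well-counted sgRNA was at 860 counts in PBS and 1089, 333 and 305 with oxaliplatin. CYP4A22 was at 2.71 ± 1.74, from 0.71 in replicate 1 to 3.74 and 3.69. CYP4A11 had 4 well-counted sgRNAs and a fold change of 0.54 ± 0.88. Of the CYP4A11 sgRNAs, 2 were above PBS in all 3 libraries, 623 counts against 5688, 1912 and 1856, and 108 against 457, 1107 and 802. Another went from 2391 to 821, 720 and 1097. CYP4A11 and CYP4A22 are near-identical copies, and whether an sgRNA cuts both was not tested.

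CYP4F8, a prostaglandin hydroxylase, was at -1.99 ± 1.05, with all 4 sgRNAs well counted and below PBS in all 3 libraries. Its lowest sgRNA went from 491 counts in PBS to 4, 66 and 110. CYP4F3, which inactivates leukotriene B4 in leukocytes, was at -1.95 ± 1.17 with 3 sgRNAs below, the lowest going from 534 counts to 10, 68 and 219. CYP4F2, which hydroxylates vitamin K and leukotrienes, was at -1.51 ± 0.71 with 3 below. CYP4F2 and CYP4F3 also held sgRNAs that were high in replicate 1, with 3224 counts in PBS and 16151, 3208 and 4852 with oxaliplatin in CYP4F2, and with 324 and then 2573, 132 and 197 in CYP4F3. CYP4F12 was at 0.063 ± 0.19, with 1 called sgRNA beside 3 well-counted ones.

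Families 7 and above, the sterol, steroid and vitamin enzymes, had a median fold change of 0.61, and 1.17, 1.52 and 1.14 in the 3 libraries taken singly, where all genes had 0.15, 0.24 and 0.23. Genes near the middle of the class went different ways in different libraries, and the median of gene means lay below the median of each library. The difference from the median of all genes was 0.40 (0.37 with library totals and 0.34 with TMM), 0.17 with counts under 3 set to 3, and -0.037 when restricted to well-counted sgRNAs. It was 1.21 without replicate 1, 0.91 without replicate 2 and 0.14 without replicate 3. Of its 19 genes 9 lay above 0 in all 3 libraries and 5 below.

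CYP51A1, the lanosterol demethylase of cholesterol synthesis, had the highest fold change of the CYP genes at 6.86 ± 1.97 (4.60, 8.24 and 7.74), rank 45 of 1773. Its sgRNAs went from 1 count in PBS to 6141, 557 and 919, from 0 to 12, 428 and 362, and from 0 to 68, 441 and 176. The 1 well-counted sgRNA had 1326 in PBS and 1087, 1203 and 1274 with oxaliplatin, a fold change of -0.68 ± 0.29. No CYP51A1 sgRNA was called by edgeR, the lowest adjusted p being 0.0658. CYP26B1 was at 4.66 ± 0.60 and CYP27A1 at 4.44 ± 0.49, and their well-counted sgRNAs alone gave 0.12 and -0.79.

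Fold changes of the enzymes of bile acid and oxysterol metabolism lay on both sides of 0. CYP7A1, the rate-limiting enzyme of bile acid synthesis, was at 3.83 ± 1.04, CYP39A1 at 2.65 ± 0.84, CYP46A1 at 2.62 ± 0.98, CYP7B1 at 0.61 ± 0.94 and CYP8B1 at -0.77 ± 0.50. CYP7A1, CYP39A1 and CYP7B1 had 2 sgRNAs under 3 counts in PBS, CYP46A1 had 1 and CYP8B1 had none. Restricted to well-counted sgRNAs, these genes all lay below 0, in the first order at -2.11, -1.15, -3.36, -1.89 and -0.77. The median over all genes was then -0.996. What the split owes to the scarce sgRNAs was not tested. CYP7A1 held sgRNAs on both sides of PBS. One went from 362 counts in PBS to 12, 3 and 11 with oxaliplatin and another from 189 to 619, 752 and 1377, with the last pair at 0 in PBS and at 23, 143 and 119 and 119, 257 and 307. The first was the furthest below PBS of the well-counted CYP sgRNAs, at -5.89 ± 0.77, with edgeR log2 fold change -5.25, SE 1.46 and adjusted p = 0.0703.

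Among the steroid hormone enzymes the fold changes were near or below 0. CYP21A2, the 21-hydroxylase, was at -1.29 ± 0.83 and CYP17A1, the hydroxylase and lyase of androgen synthesis, at -1.28 ± 1.10. CYP19A1, aromatase, was at -0.83 ± 2.26, with -3.44 in replicate 1 and 0.53 and 0.42 in the others. CYP11A1, which cleaves the cholesterol side chain, was at -0.78 ± 0.64 and CYP11B2, aldosterone synthase, at -0.23 ± 0.19. CYP19A1 had 1 sgRNA under 3 counts in PBS, and CYP21A2, CYP17A1, CYP11A1 and CYP11B2 had none. Over all genes with none the median fold change was -0.78, and with 1 it was -0.11, so such values were common in the library. In CYP21A2 1 sgRNA went from 1261 counts to 11, 109 and 181, and another from 566 to 2310, 2128 and 2063 (1.42 ± 0.15). In the retinoic acid group CYP26A1 was at 3.37 ± 0.24 and CYP26C1, with 4 well-counted sgRNAs, at -0.40 ± 1.15. The well-counted sgRNAs of CYP26A1, 2 in number, gave -1.03 alone.

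Where CYP sgRNAs were well counted in PBS, most lay lower with oxaliplatin, as in the rest of the library. The 151 CYP sgRNAs with at least 100 counts in PBS had a median fold change of -1.02, beside -0.96 over all 4859 well-counted sgRNAs. A minimum set in PBS alone moves such medians down, so only the difference between them is read. Of the 151, 81 (53.6%) lay below PBS in all 3 libraries, against 52.4% over all well-counted sgRNAs, and 11 (7.28%) lay above, against 11.7%. With at least 100 counts in PBS required, edgeR called 0 CYP sgRNAs higher and 0 lower, as over the library. At an unadjusted p under 0.05 it gave 1 higher (0.662%, against 0.947%) and 2 lower (1.32%, against 0.7%).

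The lowest well-counted sgRNAs after that of CYP7A1 were one of CYP46A1, from 1007 counts in PBS to 1, 43 and 166, and one of CYP2U1, from 676 to 0, 135 and 48. Both had few counts in replicate 1, which was the deepest library. The highest in families 1 to 3 were one of CYP2F1, from 385 to 14423, 1448 and 1310, and one of CYP1B1, from 915 to 1550, 6083 and 6110. The 11 sgRNAs above PBS belonged to 10 genes, and 9 of these genes also had a well-counted sgRNA below PBS in all 3 libraries. Over all genes, 343 of the 481 with a well-counted sgRNA above PBS also had one below. Those 9 genes are 16.7% of the CYP genes, beside 19.3% of all genes with sgRNAs on both sides.

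**Figure D5:**
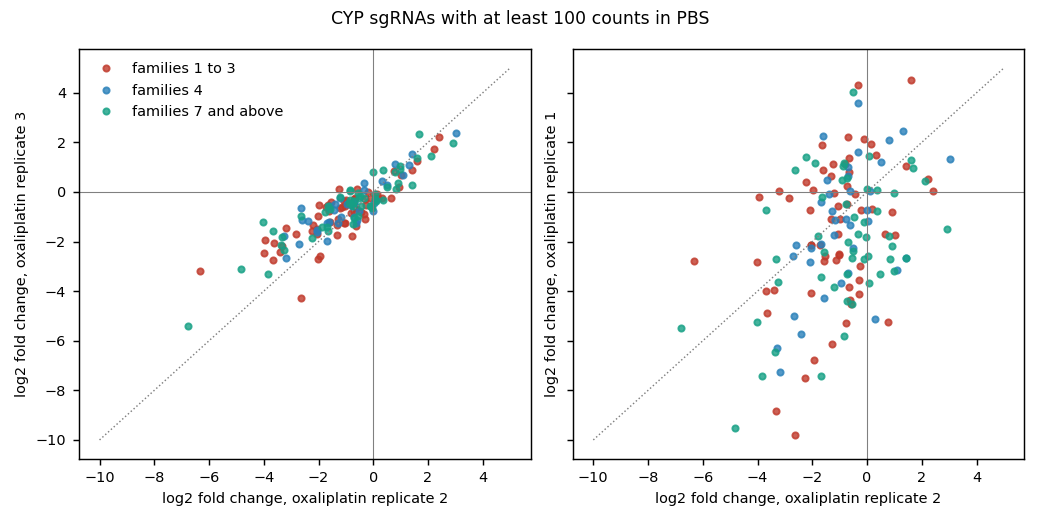
Log2 fold change of the 151 CYP sgRNAs with at least 100 counts in PBS, replicate 3 (left) and replicate 1 (right) against replicate 2, coloured by family class, with the dotted line at equal values. Points lie near the line on the left and are spread widely on the right, and both axes of each panel share the PBS library.

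Genes with at least 3 sgRNAs on one side of PBS made up shares of the P450s near those of the library. At least 3 sgRNAs lay below PBS in all 3 libraries in 9 of 54 CYP genes (16.7%), against 14.2% of all genes. These were CYP2C18, CYP2D6, CYP2J2, CYP2R1, CYP4F2, CYP4F3, CYP4F8, CYP17A1 and CYP21A2. At least 3 lay above in 6 CYP genes (11.1%), against 14.9%, namely CYP2E1, CYP3A4, CYP3A5, CYP4X1, CYP7A1 and CYP51A1. In 16 CYP genes all 4 sgRNAs were well counted. Their median fold change was -0.95, beside -0.92 for the 420 such genes of the library. Of the 16, 12 lay below 0 in all 3 libraries, against 284 of the 420.

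Without replicate 1, many more CYP sgRNAs and genes were called, at shares near those of the whole library. By edgeR 81 of 215 CYP sgRNAs (37.7%) were higher, against 38.2% of all sgRNAs, and 32 (14.9%) were lower, against 15.5%. All 18 calls named above were among the 81. This fit estimates the spread from replicates 2 and 3 alone, which correlated at 0.946, and assumes that PBS varies as little. The lower sgRNAs all had at least 100 counts in PBS, and 30 of them were also below PBS in replicate 1. A lower call needs counts in PBS, and replicate 1 was compared with the same PBS library, so neither is independent support. The corresponding counts over the whole library were not made. The CYP7A1 sgRNA with 362 counts in PBS was lower (log2 fold change -5.68, edgeR adjusted p = 1.29e-08), and so was the CYP21A2 sgRNA with 1261 (-3.11, edgeR adjusted p = 2.23e-08). The CYP4A11 sgRNA with 108 counts was higher (3.21, edgeR adjusted p = 4.73e-07).

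On summed counts without replicate 1, edgeR called 13 of 54 CYP genes higher (24.1%), against 22.9% of all entries, and 9 lower (16.7%), against 18.2%. The higher genes were CYP1A2, CYP2E1, CYP2F1, CYP3A4, CYP3A5, CYP4V2, CYP4X1, CYP7A1, CYP20A1, CYP26B1, CYP27A1, CYP27C1 and CYP39A1. The orphan enzyme CYP20A1 had the lowest adjusted p of these, with summed counts of 894 in PBS and 1926, 3747 and 4094 with oxaliplatin (log2 fold change 1.92, edgeR adjusted p = 7.38e-06). CYP3A5 followed at 2.59 (edgeR adjusted p = 2.05e-05). The lower genes were CYP2A7, CYP2B6, CYP2D6, CYP2J2, CYP2U1, CYP4F3, CYP4F8, CYP4Z1 and CYP7B1, with CYP7B1, an oxysterol hydroxylase, at -1.82 (edgeR adjusted p = 0.00154). CYP7B1 and CYP2U1 had medians over sgRNAs of 0.61 and 0.21 with all 3 libraries, on the other side of 0 from their summed counts without replicate 1. CYP2B6 did so as well, at 3.33 ± 1.03 by the median and -0.93 on summed counts (edgeR adjusted p = 0.00378).

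The proteins that pass electrons to P450s gave mixed values. Of the 11 such genes 0 were called by edgeR on summed counts over 3 libraries (0 at an unadjusted p under 0.05, and 0 by DESeq2). Without replicate 1, edgeR called 2 higher and 3 lower, where 22.9% of all entries were higher and 18.2% lower. Of the 11, 2 lay above 0 in all 3 libraries (18.2%, against 40.4% of all genes) and 6 below (54.5%, against 31.2%). Their median fold change was -0.74, beside 0.20 over all genes. Fewer of their sgRNAs had under 3 counts in PBS, 15.9% against 27.1% over all genes, and gene fold changes rose with the number of such sgRNAs. These shares, and what they owe to the PBS counts, were not tested. POR, the reductase that serves the microsomal P450s, was at 6.64 ± 0.43. Its sgRNAs went from 5280 counts in PBS to 63, 5145 and 5201, from 0 to 96, 320 and 461, from 19 to 2260, 908 and 1488, and from 7 to 83751, 3927 and 3696. The well-counted POR sgRNA alone gave -2.66, with -7.09 in replicate 1 and -0.36 and -0.52 in replicates 2 and 3. FDXR, the reductase of the mitochondrial chain, was at 3.27 ± 0.34, and at -2.06 when restricted to well-counted sgRNAs. Its scarce sgRNAs went from 2 counts to 770, 935 and 840 and from 14 to 10091, 9317 and 7134, and the others from 1614 to 211, 305 and 402 and from 5291 to 2887, 2672 and 4953. The ferredoxin FDX1 was at -0.74 ± 0.56. CYB5A, cytochrome b5, was at -1.41 ± 0.72, and the b5 reductases CYB5R3 and CYB5R4 were at -1.91 ± 1.44 and -2.10 ± 1.38. FDX2, the ferredoxin of iron-sulfur cluster assembly, was at 2.18 ± 2.93, and at -2.38 on its well-counted sgRNAs. Those sgRNAs were at -6.40 and -6.19 in replicate 1. They were at -0.33 and -0.011 in replicate 2 and at -0.78 and -0.56 in replicate 3.

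The P450s listed under other symbols were thromboxane synthase, TBXAS1, at 2.24 ± 1.51 (-1.74 on its well-counted sgRNAs), and prostacyclin synthase, PTGIS, at 0.11 ± 0.23. All 4 PTGIS sgRNAs were well counted, and they lay on both sides of PBS, from 275 counts to 6576, 5995 and 7263 and from 745 to 29, 265 and 567. TBXAS1 had 2 sgRNAs at 0 in PBS, which had 263, 316 and 315 and 13, 78 and 130 with oxaliplatin.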

How the data were processed

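The authors amplified the sgRNA region from genomic DNA by PCR and deposited raw counts of reads per sgRNA for 4 libraries (7142 sgRNAs, 1823 entries, of which 50 have 1 sgRNA). The submitters' processing notes name MAGeCK, without a version, and the mm10 build, although the library is human. The sources used here do not say how reads were matched and counted. PCR reads carry no molecular identifiers and are not independent molecules. Columns were matched to samples by name, and groups came from the labels.

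The members and lists were chosen with earlier results of these data known. The genes given in full were those with a call, the 3 highest and 3 lowest of each class by fold change, the 2 highest and 2 lowest well-counted sgRNAs of each class that went one way in all 3 libraries, CYP3A5, CYP51A1, and genes with all 4 sgRNAs well counted, plus P450s under other symbols and electron donors. Other genes are named from their class or counts and were chosen after their values were seen. The values of 1 gene are not reported here by name.

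Counts were fitted with edgeR 4.0.16 (TMM, filterByExpr, quasi-likelihood test) in R 4.3.3 per sgRNA and on sums per gene over all features, with Benjamini-Hochberg adjustment, and DESeq2 1.42.0 was an alternative. Fold changes used median-ratio scaling after MAGeCK and a pseudocount of 1, in Python 3.11.15 with pandas 2.3.3. The edgeR fit per sgRNA was tested on simulated counts, with known changes given only to sgRNAs well represented on average over the 4 libraries.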

Additional observations from a re-analysis of the deposited data

How the results depend on the processing

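The number of CYP sgRNAs called higher, 18 with edgeR, was 16 with RLE scaling and 18 without the filter on low counts, but 59 with DESeq2, 0 with library totals, 0 with at least 3 counts in PBS and 0 with at least 100. Leaving out each oxaliplatin library in turn gave 11 to 81, with 81 without replicate 1 and 11 without replicate 3. The number called lower, 0, was 2 with DESeq2 and 0 to 32 without one library, with 32 without replicate 1. On counts summed per gene, DESeq2 called 4 CYP genes higher, and leaving out a library gave 0 to 13 higher and 0 to 9 lower, the upper ends without replicate 1. Of the 18 called sgRNAs, 18 were called by DESeq2 and without replicate 1, 16 with RLE, 12 without replicate 2, 6 without replicate 3 and 0 with library totals, and none turned lower.

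The CYP median minus that of all genes was 0.032. It was 0.12 with a pseudocount of 50, -0.018 with counts under 3 set to 3, 0.19 with the mean over sgRNAs, and -0.052 to 0.14 without one library. Families 1 to 3, at 0.13, gave -0.11 with a pseudocount of 10, -0.15 with the floor, -0.12 with the mean, and -0.041 to 0.35 without one library. Family 4, at -0.22, gave -0.11, -0.12 and 0.027 under the same settings, 0.0086 with a pseudocount of 50, and -0.29 to -0.21 without one library. Families 7 and above, at 0.40, gave 0.18, 0.17 and 0.69 under the pseudocount of 10, floor and mean, -0.037 with at least 100 counts in PBS, and 0.14 to 1.21 without one library. The well-counted difference, -0.058, stayed between -0.063 and 0.081 under its alternatives and without one library. Of 34 CYP genes chosen to be given in full, including the gene not named here, 14 changed sign when restricted to well-counted sgRNAs, 4 with TMM, and 2 or fewer under each of the other settings. That restriction leaves out the sgRNAs scarce in PBS. With it the CYP median went from 0.24 to -1.003, and that of all genes from 0.20 to -0.996. Sign changes over all genes were not counted. What the sign changes owe to the scarce sgRNAs was not tested.

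No paired analysis was possible because the single PBS library carries no replicate number. With 1 PBS library, the spread among controls is unknown, and sgRNAs under 3 counts there have only a bound.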
